A study of Mus musculus with 8 samples.

Results

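A set of 9 genes through which lymphoid cells migrate and attach was followed in mouse B-lymphoid cells of c-jun knockout and wild-type genotype. They encode the chemokine receptors Ccr7, Cxcr5 and Cxcr4, the lipid receptor S1pr1, the integrin chains Itgal, Itga4, Itgb1 and Itgb7, and the selectin ligand Selplg. Members were taken by name, each as the probe set that carries exactly 1 gene symbol and has the highest mean. All 9 were measured, each by 1 such probe set, out of 19937 genes on the array. RNA came from 8 samples labelled as B-lymphoid cells of SW129/C57BL/6J strain, 4 with the genotype c-jun knock out and 4 wild type, hybridized to 1 Affymetrix MoGene 1.0 ST array each. The series title places the work in lymphoid leukemia induced by BCR-ABL, a fusion tyrosine kinase, but the sample labels do not say whether these cells carried it. How c-jun was deleted, the age and number of the mice, and whether samples of a genotype came from separate cultures are not stated in the labels. The p-values therefore measure only how far these samples spread, and that spread may be technical. Sample titles start with RO in 2 knockout and 2 wild-type samples (replicates 1 and 2 of each genotype). In the others (replicates 3 and 4) they start with D for knockout and F for wild type; the labels do not say what the titles stand for.

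As background, lymphocytes leave the blood in steps. PSGL-1, the product of Selplg, tethers the cell to selectins on the vessel wall. Chemokine receptors then signal through inhibitory G proteins and switch integrins into a state that binds their ligands, and S1PR1 later draws the cell back towards the sphingosine 1-phosphate of blood and lymph. In bone marrow, CXCR4 and the integrin of the alpha4 and beta1 chains keep B-cell progenitors close to stromal cells that display CXCL12 and VCAM-1, whereas CCR7 and CXCR5 mark more mature B cells that enter lymphoid organs.

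Values are log2 signals as deposited, so 1 unit is a doubling. Array medians ran from 6.93 to 7.42 and were highest in wild-type replicates 1 and 3 (7.41 and 7.42). Jun itself averaged 6.86 ± 0.27 (SD, n = 4) where it was knocked out and 9.25 ± 0.87 (SD, n = 4) in the wild type, with no overlap (2-sided exact permutation test, p = 0.0286, the smallest that 70 assignments allow; limma adjusted p over all genes 0.106). Of 13 measured B-lineage markers, 10 were above the array median in all 8 samples, among them Cd79a, a chain of the B-cell receptor complex, at 13.02 to 13.30. The mean of that list was 10.45 to 11.05 in knockout and 10.33 to 11.08 in wild-type samples. The corresponding numbers above the median were 1 of 12 for T and NK cells (Cd3e), 1 of 12 for myeloid cells (Lyz2), 1 of 7 for erythroid cells and megakaryocytes (Itga2b) and 4 of 10 for stromal and endothelial cells (Pecam1, Col1a1, Col1a2 and Col3a1). Their list means were 6.37 to 6.90 in knockout and 6.44 to 7.29 in wild-type samples for T and NK cells, 6.79 to 7.04 and 6.66 to 7.47 for myeloid cells, 6.56 to 7.10 and 6.82 to 7.20 for erythroid cells and megakaryocytes, and 6.91 to 7.24 and 6.92 to 7.51 for stromal and endothelial cells. In bulk RNA, fewer cells of a type and less RNA per cell cannot be told apart.

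For none of the 9 genes was the difference between genotypes larger than the spread of the samples after adjustment. With limma, fitted over all genes with genotype and title series as terms, 0 of 9 passed the Benjamini-Hochberg adjustment, and 0 of 9 had an unadjusted p under 0.05. Over all genes 0.00502% passed and 2.25% had an unadjusted p under 0.05 (0.537% higher and 1.72% lower in knockout samples). Knockout and wild-type samples overlapped for all 9 members, while they did not overlap for 1.29% of all genes. On average 6 members were higher and 3 lower in knockout samples, with a median log2 difference of 0.062 against -0.11 over all genes. With arrays centred on their medians these medians were 0.22 for the members and 0.040 over all genes, and after quantile normalization 0.037 and -0.0041. The members differed widely between single samples: as deposited, the range over the 8 arrays was wider than the median range of all genes (0.75) for 7 of 9, and Itgal, with a 13.4-fold span, ranked 73 among 19937 genes by range.

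**Figure D1:**
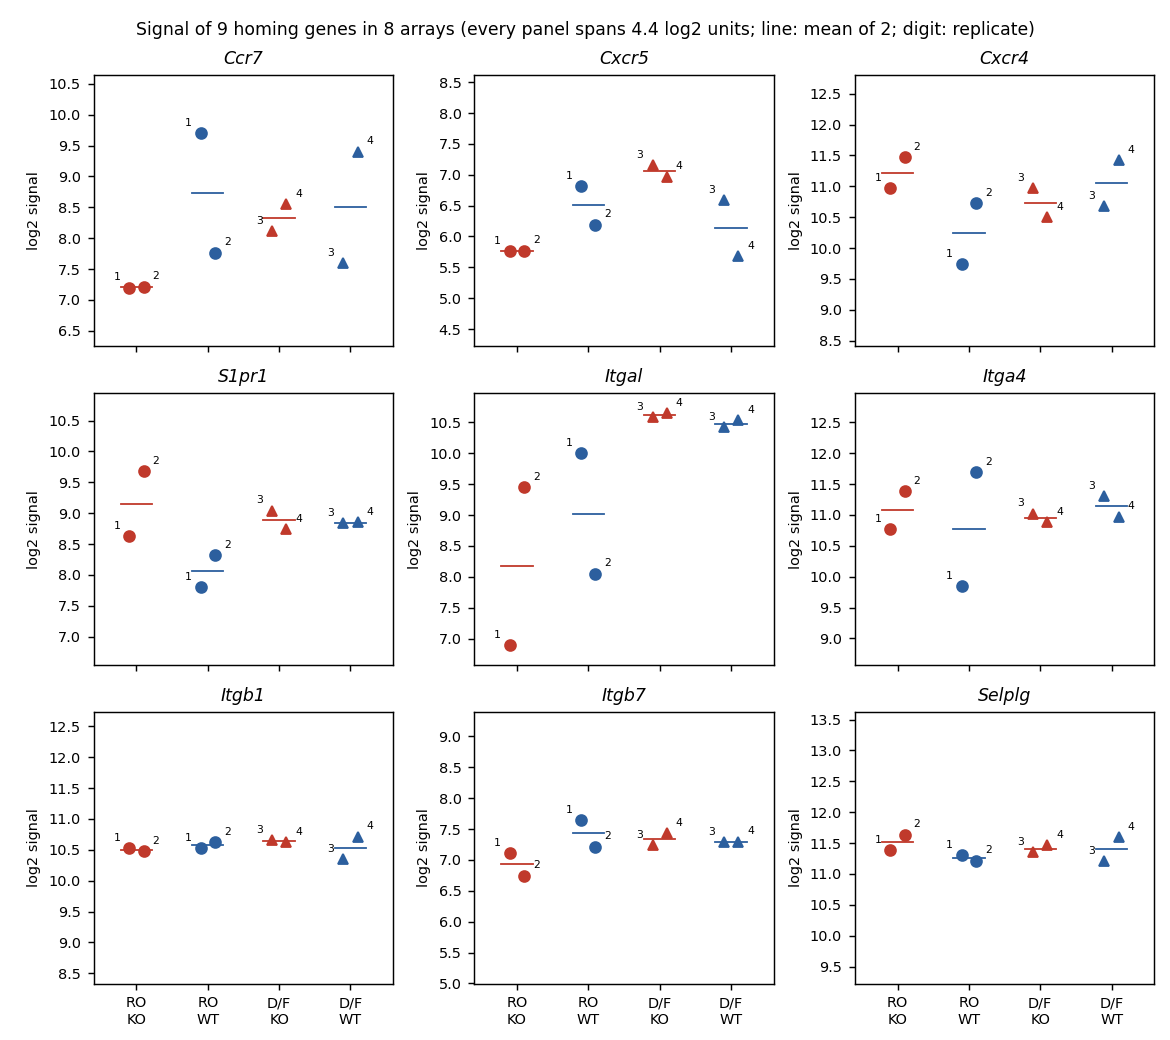
Log2 signal (y axis) of the 9 genes in each of 8 arrays, by title series and genotype (x axis; KO knockout, red; WT wild type, blue; circles RO titles, triangles D/F titles; digits are replicate numbers and lines the mean of 2). Itgal is at 10.43 to 10.65 in all 4 D/F samples and at 6.90 to 9.999 in the RO samples, while Itgb1 and Selplg span 0.36 and 0.43 as deposited.

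Ccr7, the receptor for CCL19 and CCL21, was at 7.20, 7.22, 8.12 and 8.55 in knockout replicates 1 to 4, against 9.70, 7.77, 7.59 and 9.40 in replicates 1 to 4 of the wild type. The highest signals were those of wild-type replicates 1 and 4 and the lowest those of the knockout samples with RO titles, but wild-type replicates 2 and 3 lay among the knockout samples. Knockout samples averaged 7.77 ± 0.67 (SD, n = 4) and wild-type samples 8.62 ± 1.09 (SD, n = 4), a log2 difference of -0.85 (SE 0.47, 95% interval -1.87 to 0.18, limma adjusted p = 0.878). Within RO titles it was -1.53, and both knockout samples lay below both wild-type samples; within D/F titles it was -0.16, and the wild-type samples lay on either side of the knockout samples. Leaving out wild-type replicate 1 gave -0.32, and leaving out wild-type replicate 3 gave -1.34.

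The samples high in Ccr7 were those low in 3 early B-cell genes, a pattern chosen after the values were seen and not tested. Rag1, a subunit of the V(D)J recombinase, was at 8.06, 8.003, 7.22 and 6.17 in the 4 samples with the highest Ccr7 signals (knockout replicates 3 and 4, wild-type replicates 1 and 4) and at 9.72 to 10.43 in the other 4. Rag2, the second subunit, was at 6.63, 6.91, 6.22 and 5.69 in the same 4 samples and at 8.31 to 9.49 in the others. Il7r, a chain of the interleukin-7 receptor of early B cells, was at 9.75, 8.96, 8.92 and 10.13 against 11.39 to 12.44. These 4 samples include both genotypes and both title series. Rag1, Rag2 and Il7r were the 3 of 13 measured B-lineage markers for which these 4 samples all lay below the other 4. For the other 10, which include Ebf1, Vpreb1 and Igll1 of those above the array median, the samples overlapped. How many of all genes split in the same way was not counted, so whether 3 of 13 is unusual cannot be told. The part of these differences in the Ccr7 values was not tested.

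**Figure D2:**
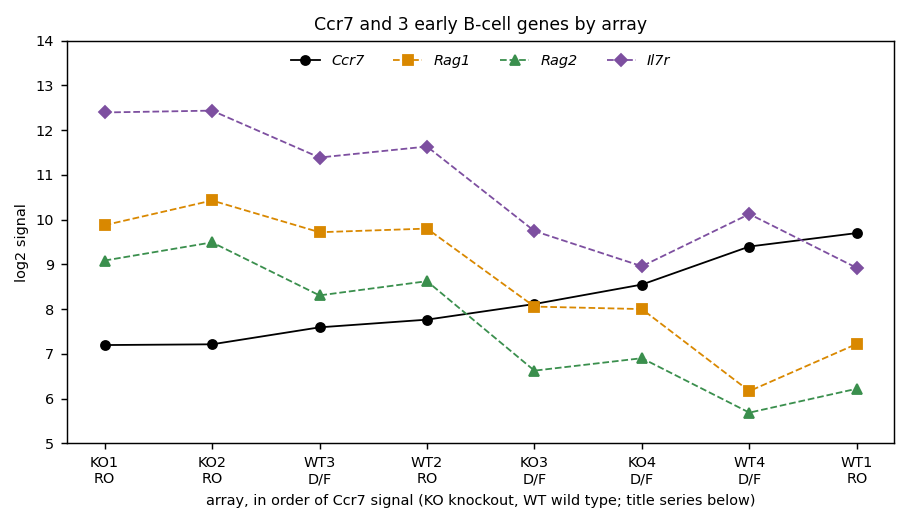
Log2 signal (y axis) of Ccr7 (solid black) and of Rag1, Rag2 and Il7r (dashed) in each array, placed in rising order of Ccr7 (x axis; genotype and replicate, with the title series below). Ccr7 goes from 7.20 to 9.70, and the 4 arrays at the right have the lowest Rag1, Rag2 and Il7r signals.

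Cxcr5, the receptor for the follicle chemokine CXCL13, was below the array median in all 8 samples, by 0.061 to 1.30, so the size of its differences is uncertain. Its signals were 5.76, 5.77, 7.16 and 6.97 in knockout replicates 1 to 4, against 6.82, 6.19, 6.59 and 5.69 in replicates 1 to 4 of the wild type. Both knockout samples were lower than both wild-type samples among the RO titles (log2 difference -0.74) and higher among the D/F titles (0.93). The means over all samples were thus close, 6.42 ± 0.75 (SD, n = 4) for the knockout and 6.32 ± 0.50 (SD, n = 4) for the wild type, with a log2 difference of 0.094 (SE 0.33, 95% interval -0.64 to 0.82, limma adjusted p = 0.939). It was 0.25 with arrays centred and 0.26 after quantile normalization, and as deposited it changed sign without knockout replicate 3 (-0.11), knockout replicate 4 (-0.035) or wild-type replicate 4 (-0.25).

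Cxcr4, which binds CXCL12 and retains progenitors in marrow, was bright in every sample. Its signals were 10.97, 11.48, 10.97 and 10.50 in knockout replicates 1 to 4, against 9.74, 10.73, 10.69 and 11.42 in replicates 1 to 4 of the wild type. Wild-type replicate 1 was lowest, and the other 3 wild-type samples lay within the range of the knockout samples. Knockout samples averaged 10.98 ± 0.40 (SD, n = 4) and wild-type samples 10.65 ± 0.69 (SD, n = 4) (log2 difference 0.33, SE 0.31, 95% interval -0.34 to 1.01, limma adjusted p = 0.878). Within RO titles it was 0.98, within D/F titles -0.32, and it was 0.0060 without wild-type replicate 1.

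The stretches of 250 bases before the start of Cxcr4 and Itga4 are shown because both genes were bright and both had their lowest signal in wild-type replicate 1. They are RefSeq sequences of GRCm38.p6, at chr1:128592300-128592549 on the minus strand for Cxcr4 and at chr2:79255176-79255425 on the plus strand for Itga4. Capitals mark letters that match a searched motif on either strand. The AP-1 site, the kind of element that c-JUN binds, was searched as TGACTCA, and the cyclic-AMP response element as TGACGTCA. The GC box was searched as GGGCGG, and the TATA box was searched as TATAAA.
Cxcr4: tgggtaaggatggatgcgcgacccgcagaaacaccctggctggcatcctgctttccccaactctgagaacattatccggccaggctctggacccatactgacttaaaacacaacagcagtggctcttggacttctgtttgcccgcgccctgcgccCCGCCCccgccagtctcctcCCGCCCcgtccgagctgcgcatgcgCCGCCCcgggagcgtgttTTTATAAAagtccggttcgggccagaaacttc
Itga4: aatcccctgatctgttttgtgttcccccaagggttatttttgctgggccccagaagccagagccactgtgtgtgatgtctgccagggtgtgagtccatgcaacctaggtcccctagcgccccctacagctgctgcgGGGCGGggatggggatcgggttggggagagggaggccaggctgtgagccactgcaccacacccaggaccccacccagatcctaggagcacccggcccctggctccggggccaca
The Cxcr4 stretch held 3 GC boxes and 2 overlapping matches to the TATA box, and the Itga4 stretch held 1 GC box. Neither AP-1 nor cyclic-AMP response letters occurred in the stretches of Cxcr4, Itga4, Itgb1 or Itgb7, the 4 members found in the promoter table. Among 32851 stretches of the same length, 4.46% held the AP-1 site, 1.55% the cyclic-AMP response element, 32.7% the GC box and 12.4% the TATA box. The absence of a match says only that these letters are not in this window.

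S1pr1, the receptor through which lymphocytes leave tissues along sphingosine 1-phosphate, had the smallest p of the 9 genes for genotype (0.0612 before adjustment in limma). Its signals were 8.63, 9.68, 9.04 and 8.74 in knockout replicates 1 to 4, against 7.81, 8.32, 8.83 and 8.86 in replicates 1 to 4 of the wild type. Knockout replicate 2 was highest and wild-type replicate 1 lowest; the 4 D/F samples lay within 0.30 of each other. Knockout samples averaged 9.02 ± 0.47 (SD, n = 4) and wild-type samples 8.45 ± 0.50 (SD, n = 4), a log2 difference of 0.57 (SE 0.27, 95% interval -0.031 to 1.17, limma adjusted p = 0.878). Within RO titles it was 1.09, with both knockout samples above both wild-type samples, and within D/F titles 0.045. Without knockout replicate 2 it was 0.25. As a comparison, Klf2, a transcription factor known to drive S1pr1, was at 8.24 to 8.53 in knockout samples and at 9.39, 8.14, 8.79 and 8.77 in wild-type replicates 1 to 4, so the sample lowest in S1pr1 was the highest in Klf2. That sample, wild-type replicate 1, was the highest of 8 for 33.6% of all genes and the lowest for 12.5%. Whether the 2 genes vary together was not tested. Cd69, whose product pulls S1PR1 off the cell surface, was at 9.86 to 11.27 in knockout and 9.94 to 10.64 in wild-type samples (log2 difference 0.054, SE 0.24).

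Itgal, the CD11a chain of the integrin LFA-1 that binds ICAM-1, had signals that overlapped between genotypes and did not overlap between title series. Its signals in the RO samples were 6.90 and 9.45 in knockout replicates 1 and 2 and 9.999 and 8.05 in wild-type replicates 1 and 2. In the D/F samples they were 10.59 and 10.65 in knockout replicates 3 and 4 and 10.43 and 10.54 in wild-type replicates 3 and 4. All 4 D/F samples lay above all 4 RO samples and within 0.22 of each other, whereas the RO samples spanned 3.10, or 8.57-fold. In knockout replicate 1 alone Itgal lay below the array median. The D/F mean was 10.55 ± 0.093 (SD, n = 4) against 8.60 ± 1.40 (SD, n = 4) in the RO samples, a log2 difference of 1.95 (SE 0.51, 95% interval 0.83 to 3.07), or 3.86-fold. The limma p was 0.00270 and the adjusted p over all genes 0.601, so the difference did not pass. It was 2.44 in knockout and 1.46 in wild-type samples, and 1.34 without knockout replicate 1. The genotype difference was -0.36 (SE 0.51, 95% interval -1.48 to 0.76, adjusted p = 0.878); it was -0.21 with arrays centred, and it turned to 0.25 when knockout replicate 1 was left out and to 0.13 when wild-type replicate 1 was.

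Itgb2, the beta chain that pairs with CD11a in LFA-1 and is not among the 9 genes, did not follow Itgal. It was at 9.82, 9.67, 9.64 and 10.01 in knockout replicates 1 to 4, against 9.89, 9.85, 10.29 and 9.73 in replicates 1 to 4 of the wild type. Its difference between title series was 0.11 (SE 0.16) against 1.95 for Itgal, and the difference between these 2 values was not tested.

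Itga4, the alpha4 chain, pairs with beta1 to bind VCAM-1 and fibronectin and with beta7 to bind MAdCAM-1 of gut vessels. Its signals were 10.77, 11.39, 11.02 and 10.89 in knockout replicates 1 to 4, against 9.85, 11.69, 11.31 and 10.97 in replicates 1 to 4 of the wild type. Wild-type replicates 1 and 2, both with RO titles, were the lowest and the highest sample, and the others lay between 10.77 and 11.39. Knockout samples averaged 11.02 ± 0.27 (SD, n = 4) and wild-type samples 10.96 ± 0.79 (SD, n = 4) (log2 difference 0.062, SE 0.32, 95% interval -0.64 to 0.77, limma adjusted p = 0.957). The difference was 0.22 with arrays centred and 0.037 after quantile normalization, -0.36 with wild-type replicate 1 left out and -0.11 with knockout replicate 2 left out.

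The partner chain Itgb1 had the narrowest span of the 9 genes as deposited, though not with arrays centred on their medians, where it spanned 0.79 against 0.50 for Itgb7. Its signals ran from 10.48 to 10.66 in knockout samples and from 10.35 to 10.71 in wild-type samples, a span of 0.36 that was narrower than that of most genes (95.05% had a wider one). The log2 difference between genotypes was 0.015 (SE 0.14, 95% interval -0.28 to 0.31, limma adjusted p = 0.978). It was 0.17 with arrays centred, -0.012 after quantile normalization, -0.010 with knockout replicate 3 left out and -0.076 with wild-type replicate 3 left out.

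Itgb7, the other partner of alpha4, was dim, within 0.31 of the array median in all 8 samples. Its signals were 7.11, 6.75, 7.24 and 7.44 in knockout replicates 1 to 4, against 7.64, 7.22, 7.29 and 7.30 in replicates 1 to 4 of the wild type. The groups overlapped, with the lowest signal in knockout replicate 2 and the highest in wild-type replicate 1. The array medians of these samples (6.93 and 7.41) were the lowest and among the highest. Knockout samples averaged 7.13 ± 0.29 (SD, n = 4) and wild-type samples 7.36 ± 0.19 (SD, n = 4) (log2 difference -0.23, SE 0.19, 95% interval -0.65 to 0.19, limma adjusted p = 0.878), with -0.50 within RO titles and 0.046 within D/F titles. The difference was smaller when arrays were put on a common scale, -0.043 after quantile normalization and -0.076 with arrays centred on their medians, and -0.089 without wild-type replicate 1.

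**Figure D3:**
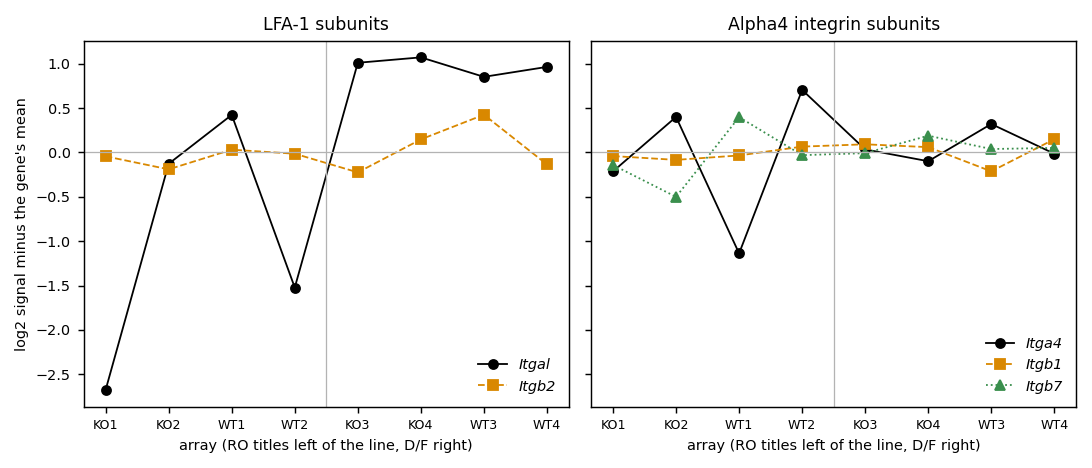
Log2 signal of each integrin chain minus its mean over the 8 arrays (y axis) by array (x axis; RO titles left of the vertical line, D/F titles right). On the left panel Itgal (solid) spans 3.75 while its partner Itgb2 (dashed) stays between 9.64 and 10.29 in signal; on the right panel Itga4 (solid) is lowest in wild-type replicate 1 (9.85), and Itgb1 (dashed) and Itgb7 (dotted) span 0.36 and 0.90.

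Selplg, which encodes the P-selectin ligand PSGL-1, was bright, with a span of 0.43 as deposited and of 0.91 with arrays centred on their medians. Its signals were 11.38, 11.64, 11.35 and 11.47 in knockout replicates 1 to 4, against 11.31, 11.22, 11.21 and 11.59 in replicates 1 to 4 of the wild type. The groups overlapped, with knockout replicate 2 and wild-type replicate 4 highest. The log2 difference was 0.13 (SE 0.14, 95% interval -0.18 to 0.43, limma adjusted p = 0.878). It was 0.28 with arrays centred and 0.081 after quantile normalization.

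**Figure D4:**
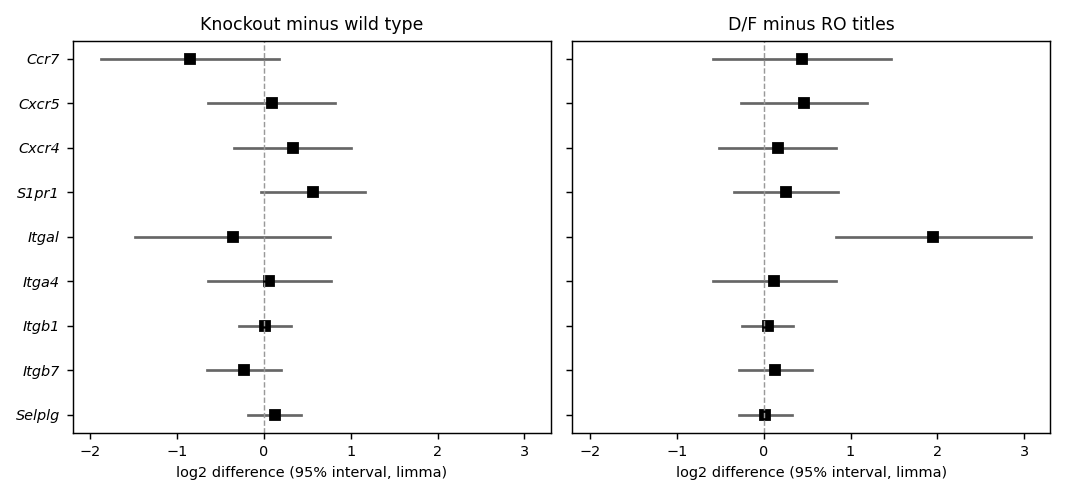
Log2 differences (x axis) of the 9 genes (rows) between knockout and wild type (left) and between D/F and RO titles (right); squares are limma estimates from 8 arrays and bars 95% intervals. In the left panel every bar crosses 0, and in the right panel the bar of Itgal (0.83 to 3.07) does not.

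Between the title series, all 9 members were on average higher in the D/F samples, as were 63.8% of all genes, and the median was 0.16 against 0.051. With arrays centred on their medians 7 of 9 were higher, against 41.7% of all genes, since Itgb1 and Selplg turned to -0.034 and -0.061. After quantile normalization all 9 were higher, against 52.2% of all genes, with medians of 0.18 and 0.0073. None of the 9 passed the limma adjustment (0.0201% of genes did), and 1 of 9, Itgal, had an unadjusted p under 0.05 (3.12% of genes). Itgal was also the only member whose title series did not overlap (1.96% of genes). After Itgal, the differences were 0.46 for Cxcr5 (SE 0.33), 0.44 for Ccr7 (SE 0.47) and 0.26 for S1pr1 (SE 0.27), each with a 95% interval that crossed 0. With single arrays left out they ran from 0.26 (knockout replicate 3) to 0.81 (wild-type replicate 4) for Cxcr5, from 0.19 (wild-type replicate 2) to 0.97 (wild-type replicate 1) for Ccr7 and from 0.054 (wild-type replicate 1) to 0.58 (knockout replicate 2) for S1pr1. The other 5 lay between 0.018 for Selplg and 0.16 for Cxcr4. Within a title series the spread also differed: 7 of 9 members spanned more in the RO than in the D/F samples, against 64.1% of all genes. The RO spans of S1pr1 (1.87), Itga4 (1.84) and Ccr7 (2.50) became 1.36, 0.92 and 0.57 without wild-type replicate 1, a sample that was the lowest or highest of 8 for 5 of 9 members and for 46.1% of all genes.

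Whether the genotype difference itself differed between title series was tested by the interaction term. None of the 9 passed after adjustment (limma adjusted p = 0.716 or higher for each; 0.0301% of genes passed, 0.0251% with a positive term), and 3 of 9 had an unadjusted p under 0.05 (5.38% of genes, 3.42% with a positive term). They were Cxcr5 (D/F minus RO 1.66, SE 0.46, limma unadjusted p = 0.00425), Cxcr4 (-1.30, SE 0.50, 0.0239) and S1pr1 (-1.04, SE 0.47, 0.0490). Single arrays moved these terms: that of Cxcr4 was -0.81 without wild-type replicate 1 (limma unadjusted p 0.0889) and that of S1pr1 -0.52 without knockout replicate 2 (0.249), while that of Cxcr5 kept an unadjusted p of 0.0218 or lower with each array left out. For Ccr7 the term was 1.36 (SE 0.87), which became 0.40 when wild-type replicate 1 was left out and 2.33 when wild-type replicate 2 was. For Itgal it was 0.99 (SE 1.02), which became -0.29 when knockout replicate 1 was left out and 2.26 when knockout replicate 2 was. Among RO titles both knockout samples lay beyond both wild-type samples for 7 of 9 members, below them for Ccr7, Cxcr5, Itgb1 and Itgb7 and above them for S1pr1, Cxcr4 and Selplg; the same held for 54.2% of all genes. Among D/F titles it held for 2 of 9, Cxcr5 and Itgal, with the knockout higher, and for 20.1% of all genes.

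Over groups of 2 samples, Itgal had the order D/F knockout (10.62), D/F wild type (10.48), RO wild type (9.03) and RO knockout (8.17), and the last 2 did not differ beyond their spread, since single RO samples of 1 genotype lay 2.55 (knockout) and 1.95 (wild type) apart. For Ccr7 the order was RO wild type (8.73), D/F wild type (8.50), D/F knockout (8.33) and RO knockout (7.21), where the first 3 overlapped. For S1pr1 it was RO knockout (9.15), D/F knockout (8.89), D/F wild type (8.85) and RO wild type (8.06), and neighbours among the first 3 overlapped.

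Genes that act with these receptors were then counted in lists drawn up from their roles. In each of the 8 lists 0 genes passed the limma adjustment, for genotype or for title series. Over all genes 72% were lower in knockout samples as deposited, 51.2% after quantile normalization and 39.7% with arrays centred. The numbers lower in each list stand against these shares. For genotype, 2.25% of all genes had an unadjusted limma p under 0.05, 0.537% higher and 1.72% lower in knockout samples. Of 24 other chemokine and egress receptors, 20 were lower in knockout samples (11 after quantile normalization and 10 with arrays centred), and 3 had an unadjusted p under 0.05. These were the scavenging chemokine receptor Ackr2 at -1.29 (SE 0.43), Ccrl2 at -0.54 (SE 0.18) and the cannabinoid receptor Cnr2 at -0.61 (SE 0.22). S1pr3, another sphingosine 1-phosphate receptor, was at 9.01 and 9.18 in the RO knockout samples and 8.48 and 7.06 in the RO wild-type samples, but at 6.90 and 6.60 against 7.57 and 8.37 in the D/F samples. Its log2 difference was 0.052 (SE 0.47) for genotype and -1.07 (SE 0.47) between title series. The interaction of S1pr3 was -2.54 (SE 0.59, limma unadjusted p = 0.00138, adjusted p = 0.636). None of these passed the adjustment. Of 17 genes for chemokine and lipid ligands and their metabolism, 13 were lower in knockout samples (7 after quantile normalization and 7 with arrays centred). None of the 17 had an unadjusted p under 0.05. The lowest p values were those of Cxcl13 (-0.25, SE 0.18), the phosphatase Plpp3 (0.33, SE 0.25) and the sphingosine kinase Sphk2 (-0.22, SE 0.17). Cxcl12, the ligand of CXCR4, stayed at 6.20 to 6.93.

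Of 16 other leukocyte integrin chains, all 16 were lower in knockout samples as deposited, 14 after quantile normalization and 12 with arrays centred. Their median difference was -0.27, -0.10 and -0.12 in that order. The beta3 chain Itgb3 had an unadjusted p under 0.05 (-0.59, SE 0.23), followed by Itgam at -0.38 (SE 0.20) and Itgb5 at -0.33 (SE 0.21). Among 15 integrin and selectin counter-receptors, 11 were lower in knockout samples as deposited, 7 after quantile normalization and 9 with arrays centred. Of these 15, only Madcam1, the ligand of the alpha4 and beta7 pair, had an unadjusted p under 0.05 (-0.43, SE 0.18). Fn1, fibronectin, had 0.98 (SE 0.74) and F11r -0.26 (SE 0.22). In the set of 36 genes that activate integrins or tie them to actin, 23 were lower in knockout samples as deposited. After quantile normalization 25 were lower, and with arrays centred 12. Of these 36, 3 had an unadjusted p under 0.05 and were lower in knockout samples, against 1.72% of all genes. They were the kinase Ptk2b at -0.79 (SE 0.28), talin 1 (Tln1) at -0.33 (SE 0.13) and the Rap activator Rasgrp1 at -1.13 (SE 0.46). For Tln1, which binds beta chains and switches integrins on, knockout samples at 10.46 to 10.61 did not overlap wild-type samples at 10.72 to 10.96. Of 19 genes for selectin, selectin ligands and their sugars, 9 were lower in knockout samples as deposited. After quantile normalization 10 were lower, and with arrays centred 6. In this list St3gal4, a sialyltransferase that completes selectin ligands, had a difference of -0.76 (SE 0.26) with no overlap. It was followed by Chst4 at -0.33 (SE 0.18) and Gcnt1 at -0.44 (SE 0.28).

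Of 33 genes for signalling and desensitisation, 22 were lower in knockout samples as deposited (72% of all genes). After quantile normalization 23 were lower (51.2% of all genes), and with arrays centred 15 (39.7%). Of the 33, 4 had an unadjusted limma p under 0.05 and were lower, against 1.72% of all genes. They were Dock8, an activator of CDC42, at -2.38 (SE 0.55) and Rgs1, which dampens signals of chemokine receptors, at -1.08 (SE 0.26). The others were Rgs16 at -0.84 (SE 0.37) and Rgs3 at -0.62 (SE 0.28). Dock8 was at 6.55, 6.47, 6.79 and 9.66 in knockout replicates 1 to 4, against 10.06, 9.32, 10.43 and 9.19 in replicates 1 to 4 of the wild type, so 3 of 4 knockout samples lay below the array median and the remaining one among the wild-type samples. Rgs1 was at 6.95, 5.75, 6.73 and 6.97 in knockout and 7.87, 7.44, 7.50 and 7.92 in wild-type samples, with no overlap. Their adjusted p-values were 0.878. Between title series, Rhoh had -0.61 (SE 0.17), Arrb1 -0.68 (SE 0.21) and Rgs18 2.15 (SE 0.71). Of 22 regulators described for homing genes, 12 were lower in knockout samples as deposited, 12 after quantile normalization and 4 with arrays centred. Among them Hif1a had 0.50 (SE 0.21) for genotype, Klf2 -0.38 (SE 0.23) and Bach2 0.18 (SE 0.14). Between title series Bach2 had 0.60 (SE 0.14, limma adjusted p = 0.382) with no overlap. At an unadjusted limma p under 0.05 between title series, 1.46% of all genes were higher in D/F samples and 1.66% lower. In the lists these were 3 higher and 2 lower of 36 integrin-activation genes, and 1 higher and 4 lower of 33 signalling genes. There were 1 higher and 1 lower of 22 regulators, 1 higher of 19 selectin genes and 1 lower of 24 receptors. In the lists of 17, 16 and 15 genes there were 0.

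For the 3 members with the widest ranges, the genes most like them were sought by the mean absolute difference of log2 signals over the 8 arrays, after each gene was centred on its own mean. Nearest to Itgal were Anxa9 (0.55), Naaa (0.58) and Haao (0.59), against a median of 1.05 over all genes, so none followed it closely. Nearest to Ccr7 were Them6 (0.24), Cuedc1 (0.28) and Dmwd (0.33), against a median of 0.76. Them6 was at 10.58 and 10.07 in wild-type replicates 1 and 4, the samples highest in Ccr7, and at 8.29 to 9.80 in the others. Nearest to S1pr1 were Zfp820 (0.15), Fra10ac1 (0.18) and Lnpk (0.18), against a median of 0.47.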

How the data were processed

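RNA was prepared with Trizol and a Qiagen column and labelled with biotin after random-primed amplification, per the labels' protocols. The authors deposited log2 values for 34760 probe sets, 1 column per sample; the log base and the scaling, a mean of 500.0 on the linear scale with 2% trimmed on every array, were read from the values. The tool was MAS5 per the submitters' processing notes; no settings are recorded there. Since MAS5 relies on mismatch probes and this type of array has none, it is uncertain how the values were computed. No detection calls were used, and precision is limited by the number of arrays.

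Names came from the platform annotation: 21640 probe sets had 1 symbol, 1321 several and 11799 none. For each of 19937 genes the single-symbol probe set of highest mean entered limma 3.58.1 (R 4.3.3; lmFit and eBayes with trend; genotype and title series as terms, 5 residual degrees of freedom), with Benjamini-Hochberg adjustment over all genes at 0.05; the method was tested on simulated data. Replicates were numbered in order of deposit, because the labels carry no replicate number. The members and lists were chosen with earlier results of these data known. Named genes were Jun, the members, up to 3 genes of smallest p per list and comparison, the 3 most alike genes of 3 members, and genes named in the text as picked from their values or as partners of a member (Itgb2, Cd69, Cxcl12, Rag1, Rag2, Il7r, Rgs3, Itga6, Itga9); markers above the array median were named as such. Alternatives were other scalings, priors, filters and weights, averaging over probe sets, a random block, single series or genotypes, and each array left out. Promoter sequences were taken from RefSeq (GRCm38.p6).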

Additional observations from a re-analysis of the deposited data

Results flagged for a closer look

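Cxcr5 was singled out because its genotype difference ran in opposite directions in the title series: every RO knockout sample (5.76 and 5.77) lay below every RO wild-type sample (6.19 and 6.82), and every D/F knockout sample (6.97 and 7.16) lay above every D/F wild-type sample (5.69 and 6.59). The difference between the series was 1.66 on the log2 scale (SE 0.46, 95% interval 0.65 to 2.68; limma unadjusted p = 0.00425, adjusted p = 0.716), and it ran from 1.21 to 2.12 over 13 alternatives. All 8 signals lay below the array median. Knockout and wild-type samples also did not overlap for 54.2% of all genes within RO titles and for 20.1% within D/F titles. How many genes did so in opposite directions was not counted, so whether the reversal of Cxcr5 is unusual cannot be told. The p-values came from the same signals that singled out Cxcr5, so they were not a separate test of it.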

How the results depend on the processing

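Over 453 refits of the 9 genes, 1 passed: the title-series difference of Itgal in wild-type samples alone (limma adjusted p = 0.000404). That fit of 2 against 2 samples took 1 variance trend for all genes, so the spread of Itgal itself did not enter; over its other alternatives the adjusted p ran from 0.117 upwards. Differences of the opposite sign were as follows. By genotype they were -0.012 for Itgb1 after quantile normalization; with array weights -0.33 for Itga4 and 0.092 for Itgal; in the RO samples alone -0.74 for Cxcr5 and -0.078 for Itgb1; and in the D/F samples alone -0.32 for Cxcr4, -0.19 for Itga4, 0.046 for Itgb7 and 0.13 for Itgal. By title series they were -0.034 for Itgb1 and -0.061 for Selplg with arrays centred; with array weights -0.26 for Cxcr4, -0.18 for Itga4 and -0.057 for Selplg; in knockout samples alone -0.26 for S1pr1, -0.49 for Cxcr4, -0.13 for Itga4 and -0.10 for Selplg; and in wild-type samples alone -0.24 for Ccr7, -0.37 for Cxcr5, -0.048 for Itgb1 and -0.14 for Itgb7. The interaction of Itgb1 was -0.16 with arrays centred. With each array left out in turn, the genotype difference ran from -0.77 to 0.25 for Itgal, -0.36 to 0.38 for Itga4, -0.25 to 0.39 for Cxcr5 and -0.076 to 0.069 for Itgb1. The title-series difference ran from -0.082 to 0.093 for Selplg, -0.16 to 0.40 for Cxcr4, -0.30 to 0.44 for Itga4 and -0.0087 to 0.14 for Itgb1, and the interaction from -0.29 to 2.26 for Itgal and -1.42 to 0.43 for Itga4. The causes were not tested.

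Over all genes, 1 passed for genotype, 4 for title series and 6 for the interaction. The 4 for title series were all lower in D/F samples; with quantile normalization, and again with arrays centred, there were 3, of which 1 was higher and 2 were lower. With the dimmer genes left out all 3 counts were 0 (231, 457 and 554 genes at an unadjusted p under 0.05), and the cause was not tested; Cxcr5 and Itgb7 were among those left out. With robust priors they were 12 for title series and 10 for the interaction, and with array weights 2 for genotype and 20 for title series. Fitted within RO titles the genotype count was 32, and within D/F titles 79; the title-series count was 11 in knockout and 159 in wild-type samples alone. Leaving out each array gave 0 to 2, 0 to 18 and 6 to 38. At an unadjusted limma p under 0.05, leaving out single arrays moved the genotype count of 449 genes to between 257 (knockout replicate 2) and 4863 (wild-type replicate 4). The title-series count of 622 moved to between 511 (knockout replicate 3) and 2520 (wild-type replicate 4). Array weights gave 3203 and 5258. No paired analysis was possible because the labels carry no replicate numbers. Signals near or below the array median (Cxcr5, Itgb7) limit the size of their differences.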

Other observations

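Several partner genes of the homing receptors differed widely between single samples, chosen here after their values were seen. Rgs18, a regulator of G-protein signalling, was at 10.49, 5.85, 9.77 and 10.52 in knockout replicates 1 to 4, against 8.25, 8.53, 10.43 and 10.99 in replicates 1 to 4 of the wild type. The alpha9 integrin chain Itga9 was at 6.66 and 7.35 in the RO knockout samples and 8.998 and 10.04 in the RO wild-type samples, but at 7.86 and 9.42 against 7.38 and 8.45 in the D/F samples. Itga6, the alpha6 chain of laminin receptors, was at 10.65 and 10.45 in wild-type replicates 1 and 4, at 10.004 in knockout replicate 4 and at 7.88 to 9.10 in the other 5 samples. None of these passed the limma adjustment for genotype, title series or their interaction; the interaction of Itga9 had an unadjusted p of 0.00135 and an adjusted p of 0.636.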
